A study of Mus musculus with 13 samples.

Results

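The iNKT1 and iNKT17 cells compared here are subsets of invariant natural killer T (iNKT) cells from the thymus of 25-week-old mice. The comparison covered the genes that reached a normalized count of 10 in 2 or more of these subsets' 4 libraries, which were 10595 of the 24421 genes in the deposited table. All groups used came from female BALB/c wild-type mice, and no transgene or deletion was involved. Live cells of pooled thymi were stained with CD1d tetramer and sorted as B220-negative and CD3-positive, iNKT1 cells being the CD122-positive ones and iNKT17 cells those that lacked both CD122 and CD4. The iNKT1 libraries N0808 and N0811 came from 468000 and 500000 sorted cells, and the iNKT17 libraries N0810 and N0813 from 500000 and 499000. Values of a pair of libraries are given in this order throughout, as deposited normalized counts, which are reads divided by a size factor per library. Beside them stand iNKT2p cells of the same age (the CD122-negative CD4-positive pool, 73800 and 74600 cells) and iNKT1 and iNKT17 cells of 6-week-old mice, each with 2 libraries. The study reports that the iNKT2p sort was contaminated by iNKT17 cells and held several populations, and that the other sorts were purer. The γδ T cell genes Cd163l1 and Sox13 summed to 1529.5 and 1305.7 in iNKT2p and 3097 and 3349.5 in iNKT17 cells. The part of such cells in the iNKT2p values was not tested. According to the study's methods, the sorts were independent and each yielded all subsets from the same pools, so that libraries of the subsets can share mice. Which sort gave which library is not in the labels.

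The iNKT1 libraries held 9067693 and 5334215 reads counted in genes, and the iNKT17 libraries 7455812 and 6415325. A count of 0 in these libraries allows up to 2.24 to 3.86 normalized counts (3 reads), a limit that covers counting error only. The ribosomal RNA gene Rn45s took 14.2 and 15.8% of the reads in iNKT1 and 9.52 and 11.8% in iNKT17 cells, and 91.9% of the genes tested in iNKT1 and 90.8% in iNKT17 cells lay within 2-fold between the libraries of the subset. In bulk RNA, fewer cells that express a gene and less RNA per cell cannot be told apart. The sort genes were as sorted on and are no finding: Il2rb, which encodes CD122, stood at 9387 and 9709 in iNKT1 and 1107 and 992 in iNKT17 cells. Cd4, whose product only the iNKT17 sort excluded, stood at 612 and 599.8 and at 18.2 and 68.0. Of the markers outside the sort, Tbx21, Cxcr3, Ifng, Klrd1, Xcl1 and Ccl5 were higher in iNKT1 and Il23r, Il17re, Il1r1, Ccr6, Sdc1 and Blk in iNKT17 cells, as their labels have it, while Klrb1c and Il7r were not called.

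iNKT cells are T cells with a nearly invariant receptor for glycolipids shown by CD1d, and they take on their effector programme while still in the thymus. The iNKT1 programme is driven by T-bet (Tbx21), responds to IL12 and IL15 and makes interferon gamma, and iNKT1 cells carry many receptors that are otherwise typical of natural killer cells. The iNKT17 programme responds to IL23 and IL1, can make IL17 on stimulation, and shares many genes with γδ T cells that make IL17.

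The receptor subunits that set these cells apart are encoded side by side. Gene positions are those of the deposited table (build mm10). Il12rb2 (chr6:67292018-67376137, minus strand) encodes the IL12-specific chain and Il23r (chr6:67422932-67491780, minus strand) the IL23-specific chain, and 46795 bases of chromosome 6 separate them. This pair was chosen, after values were seen, for its opposite differences given below. The 250 bases before the RefSeq start of each gene (build GRCm38.p6, read 5′ to 3′ on the strand of the gene) are shown. They cover chr6:67376189-67376438 for Il12rb2 and chr6:67491856-67492105 for Il23r, and capitals mark the letters TAGGTCA, the core of the element that the factor Rora binds.
Il12rb2: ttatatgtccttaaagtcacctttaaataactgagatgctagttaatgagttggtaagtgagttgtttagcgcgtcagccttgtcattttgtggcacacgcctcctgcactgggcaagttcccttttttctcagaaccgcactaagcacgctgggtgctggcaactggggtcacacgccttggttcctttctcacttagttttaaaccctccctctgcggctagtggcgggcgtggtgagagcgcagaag
Il23r: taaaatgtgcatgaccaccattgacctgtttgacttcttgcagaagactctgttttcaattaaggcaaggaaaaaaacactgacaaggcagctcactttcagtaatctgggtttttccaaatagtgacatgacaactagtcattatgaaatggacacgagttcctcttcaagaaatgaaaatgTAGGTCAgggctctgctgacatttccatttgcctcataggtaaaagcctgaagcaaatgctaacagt
Among the genes named by the rule given in the processing notes, a promoter was matched for 172 of 236. In these, TAGGTCA or the T-box letters GGTGTGA, which T-bet binds, were searched in the same 250 bases on both strands (neither string is contained in the other). T-box letters were found at 7 of 78 named genes higher in iNKT1 and 1 of 59 higher in iNKT17 cells, and Rora letters at 1 and 2 of them. Examples of genes described below follow, with 27 bases on either side where the window allowed it and the letters in capitals.
Ly6c1 (chr15:75048742-75048802, minus strand): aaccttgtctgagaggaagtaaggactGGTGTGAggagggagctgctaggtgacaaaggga
Nkg7 (chr7:43437098-43437137, plus strand): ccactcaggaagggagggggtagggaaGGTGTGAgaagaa
Xcl1 (chr1:164935677-164935737, minus strand): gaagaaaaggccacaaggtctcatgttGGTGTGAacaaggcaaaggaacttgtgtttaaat
Samd3 (chr10:26229665-26229706, plus strand): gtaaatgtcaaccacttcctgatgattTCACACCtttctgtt
Ccr6 (chr17:8235972-8236032, plus strand): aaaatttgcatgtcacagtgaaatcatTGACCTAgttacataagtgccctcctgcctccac
Samd3 and Ccr6 hold the letters as their reverse complement, TCACACC and TGACCTA. Over all 27025 genes of the promoter table, 3.84% held the T-box letters and 2.55% the Rora letters. Of the genes tested, 8065 had a promoter, of which 3.29% held the T-box and 1.97% the Rora letters. Among genes called higher in iNKT1 cells, 29 of 587 (4.94%) held T-box and 7 (1.19%) Rora letters, and among those higher in iNKT17 cells 18 of 661 (2.72%) held T-box and 23 (3.48%) Rora letters. These matches describe letters, and no binding was measured. No promoter is shown for Blk, Ccl5 or Cd2.

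A gene was called when limma, fitted over all 12 libraries of both ages on log2(normalized count + 1), gave an adjusted p under 0.05 (Benjamini-Hochberg over all genes tested). All adjusted p-values below come from this fit unless another is named, and they measure the spread between libraries. Differences are iNKT1 minus iNKT17 on this log2 scale with their SE, so that a negative one means higher in iNKT17 cells. Of the 10595 genes, 1686 were called (15.9%), 879 of them higher in iNKT17 cells (8.3% of the genes tested) and the rest higher in iNKT1 cells (7.62%). The counts of called list members given below are to be read against these shares. Without N0808, N0811 or N0813 the count was 1113, 1069 and 1103, and 903 of the 1686 genes were called the same way with each of the 4 libraries left out in turn. With the 4 libraries alone in the fit it was 2543. Differences of at least 2 on the log2 scale were shown by 393 genes called higher in iNKT1 and 467 higher in iNKT17 cells, and differences of at least 5 by 127 and 174. The median difference over all genes tested was 0.02. The genes called higher in iNKT1 cells included 70 with 0 reads in both iNKT17 libraries, and those called higher in iNKT17 cells 108 with 0 reads in both iNKT1 libraries. In all 1686 called genes the libraries of the subsets did not overlap, which was also true of 59.5% of all genes tested. For genes near 0, a difference on this scale depends on the pseudocount and is not a bound.

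**Figure D1:**
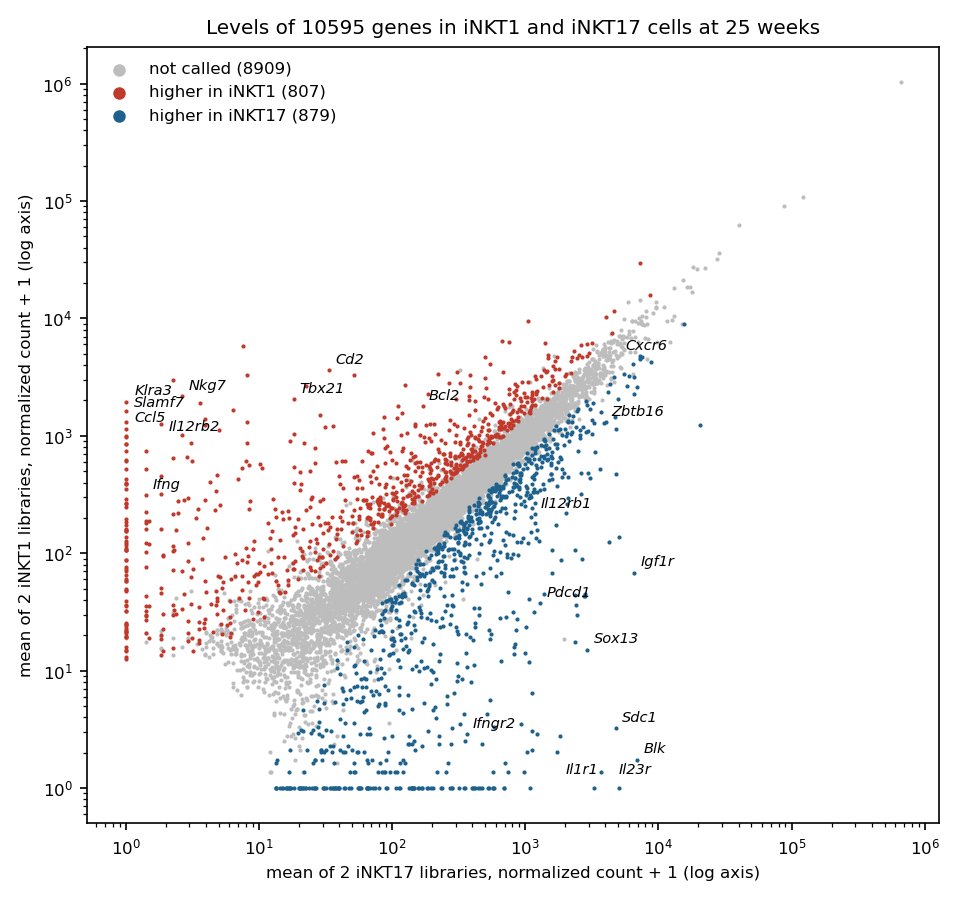
Mean normalized count + 1 of each of the 10595 genes in the 2 iNKT17 (x) and 2 iNKT1 libraries (y) at 25 weeks, both axes logarithmic, with called genes in red (higher in iNKT1) or blue (879, higher in iNKT17). Genes on the lower or left edge, such as Il23r or Klra3, had 0 reads in both libraries of one subset.

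Regulators of transcription were among the genes that set the subsets apart. Tbx21, the gene of T-bet (chr11:97098007-97115137), had 2168 and 1920.5 normalized counts in iNKT1 and 14.9 and 19.4 in iNKT17 cells, a 119-fold difference (6.82 ± 0.40 on the log2 scale, SE; limma, adjusted p = 4.16e-07). Tbx21 was thus detected in both iNKT17 libraries, far below either iNKT1 library. Zbtb16, which encodes PLZF, the factor that directs the innate-like state of iNKT cells, was high in both subsets, with 1387 and 1242 in iNKT1 and 3837 and 4177 in iNKT17 cells (−1.61 ± 0.24, adjusted p = 0.000537). iNKT2p cells exceeded both, at 5882 and 5310.1.

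Of 14 type 1 regulators tested, 5 were higher in iNKT1 and 1 in iNKT17 cells, with a median difference of 0.80. These were 35.7 and 7.14% of the list, against 7.62 and 8.3% of all genes tested. Eomes, a T-box factor related to T-bet, had 114 and 127 in iNKT1 cells and 0 reads in iNKT17 cells, at least 41.5-fold higher. Stat4, which transmits the IL12 signal, had 1599 and 1521 against 100.4 and 135 (3.73, adjusted p = 4.71e-06). Hopx, a homeodomain protein without DNA binding, had 438 and 465 against 1.66 and 0, a ratio of 501 (138 to 4141 by counting error). Zeb2, a repressor in effector T and natural killer cells, had 25.4 and 37.3 against 0.830 and 0, a ratio of 66.6 (11.5 to 2673 by counting error). The libraries of the subsets did not overlap in these genes, as in every called gene and 59.5% of all genes tested. The exception in direction was Ikzf3 (Aiolos), at 2595 and 2725 in iNKT1 and 5851 and 5761 in iNKT17 cells (−1.13, adjusted p = 0.00765, but 0.0624, 0.0532 and 0.052 without N0808, N0810 and N0813). Runx3 and Id2, with differences of 0.28 and 0.49, were not called.

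Of 17 type 17 regulators, 9 were higher in iNKT17 cells and the others were not called (median −1.61), and the count was the same with any 1 of the 4 libraries left out. Sox13, a factor of γδ T17 cells, had 12.7 and 15.4 in iNKT1 and 2766 and 3074 in iNKT17 cells (−7.60, adjusted p = 8.31e-07). Id3, an inhibitor of E proteins, had 23.2 and 21.9 against 448 and 387. Rora, an orphan nuclear receptor, had 183 and 162 against 1761 and 1633. Further called members were Maf (−2.82), Runx1 (−2.72), Ikzf2 (−2.44) and Irf4 (−1.94), besides Zbtb16. All of these were also detected in iNKT1 cells, so the subsets differed in level. Genes not called included Ahr (−0.04), Batf (−0.59), Stat3 (−0.44) and Hif1a (−0.45).

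The receptors for IL12 and IL23 share the chain encoded by Il12rb1, which had 181 and 247 in iNKT1 and 1184 and 1165 in iNKT17 cells and was thus higher in iNKT17 cells (−2.47 ± 0.21; limma, adjusted p = 7.76e-06). The IL12-specific chain Il12rb2 had 1197 and 1306 in iNKT1 cells and 1.66 and 0 in iNKT17 cells, where 2 reads were counted in all, a ratio of 1383 (382 to 11424 by counting error). The IL23-specific chain Il23r had 0 reads in both iNKT1 libraries and 4889 and 5159 normalized counts in iNKT17 cells, at least 1301-fold higher. The private chains thus lay on opposite sides, while the shared chain was present in both subsets at unequal levels.

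Receptors of the IL1 family were split in the same manner. Il1r1, the IL1 receptor, had 0 reads in iNKT1 cells and 3423 and 3183 in iNKT17 cells, at least 855-fold higher, whereas its accessory chain Il1rap was not called (−0.24). Of the IL18 receptor, the accessory chain Il18rap was higher in iNKT1 cells, with 3083 and 3019.7 against 1117 and 1308 (1.34, adjusted p = 0.000434). Its ligand-binding chain Il18r1 stood at 4262 and 3886 in iNKT1 and 6568 and 6252 in iNKT17 cells (−0.65, adjusted p = 0.0475), a call that held under 7 of 18 alternatives (adjusted p = 0.133, 0.262, 0.2 and 0.158 without N0808, N0811, N0810 and N0813). Both chains were well above 0 in both subsets.

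The interferon gamma receptor differed in its signalling chain. Ifngr1, the ligand-binding chain, had 3722 and 3578 in iNKT1 and 2756 and 2892 in iNKT17 cells and was not called (0.37, 95% interval −0.18 to 0.92). Ifngr2 had 3.74 and 0 in iNKT1 and 353 and 373 in iNKT17 cells (−7.38 ± 0.62, adjusted p = 6.02e-06). The subset with Ifng RNA was thus the one with 5 reads of Ifngr2 in its 2 libraries.

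For IL2, the high-affinity chain Il2ra (CD25) was higher in iNKT17 cells, at 1842 and 1871 against 87.5 and 85.0 (−4.41, adjusted p = 4.97e-05), opposite to the sort gene Il2rb, and the common chain Il2rg was not called (0.29). Il10ra, the IL10-binding chain, had 727 and 752 in iNKT1 cells and 0 reads in iNKT17 cells, at least 254-fold higher. Il21r had 719 and 707 against 77.1 and 61.2. Il4ra was higher in iNKT1 cells (1.27, adjusted p = 0.00224) and Il27ra in iNKT17 cells (−1.34, adjusted p = 5.50e-05). iNKT17 cells had 558 and 614 of Il17re, a receptor for IL17C, against 0 reads in iNKT1 cells, at least 152-fold higher. Il17rb, the IL25 receptor, had 122 and 146 in iNKT17 cells against 1.50 and 1.29, a ratio of 93.6 (31.7 to 457 by counting error), and 345 and 438 in iNKT2p cells. Il6ra, the IL6-binding chain, had 91.2 and 81.6 in iNKT17 cells against 0.748 and 2.57, and 1427 and 1505 in iNKT2p cells. Both were thus highest in the iNKT2p libraries. Over the lists, 5 of 12 type 1 receptors were higher in iNKT1 and 4 in iNKT17 cells (median 0.33), and 8 of 16 type 17 receptors in iNKT17 and 2 in iNKT1 cells (median −1.38, and 1 towards iNKT1 cells without N0808, N0811, N0810 or N0813). The 5 type 1 receptors include the sort gene Il2rb, whose direction was fixed by the sort. The IL7 receptor gene Il7r (−0.32) and the TGFβ receptor genes Tgfbr1 (0.50) and Tgfbr2 (0.54) were not called.

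**Figure D2:**
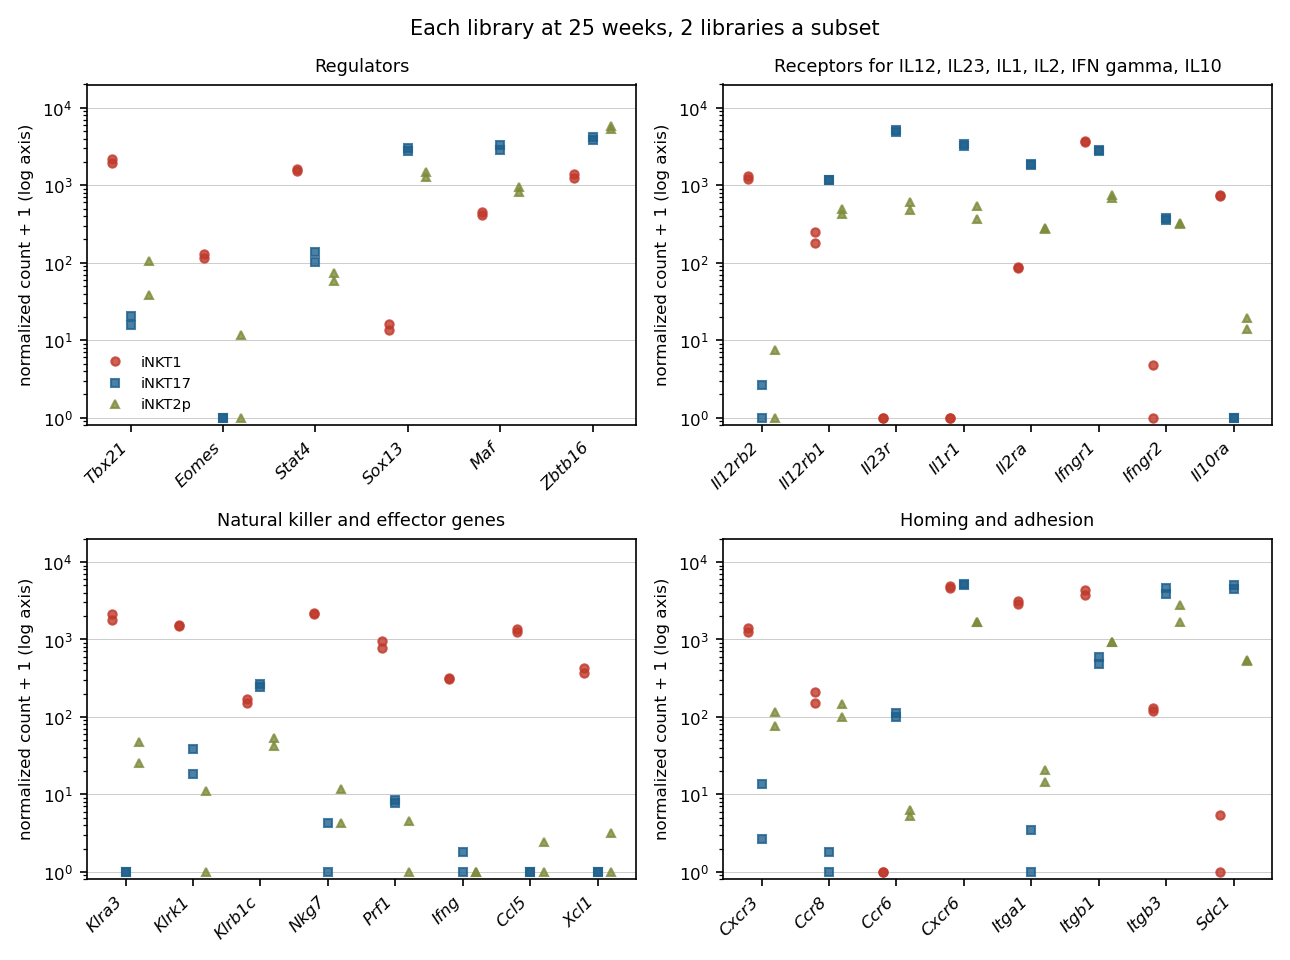
Normalized count + 1 (log axis) of 30 genes in each of the 2 iNKT1 (red circles), 2 iNKT17 (blue squares) and 2 iNKT2p libraries (green triangles) at 25 weeks, with 0 reads drawn at 1. Il12rb2 and Il23r lie on opposite sides, while Ifngr1 and Cxcr6 lie close together in iNKT1 and iNKT17 cells.

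RNA was taken straight after the sort, with no stimulation, and cytokine RNA was measured in this state. Ifng had 305 and 322 in iNKT1 cells and 0.830 and 0 in iNKT17 cells, where 1 read was counted, a ratio of 696 (124 to 27526 by counting error). Il17a and Il17f had 0 reads in the 4 libraries and Il22 3 reads, in N0810, so the cytokines that name the iNKT17 subset were at or under the limit of a count of 0. Ccl5, whose product attracts T cells and monocytes, had 1247 and 1369.6 in iNKT1 and 0 reads in iNKT17 cells, at least 449-fold higher. Xcl1, whose product attracts cross-presenting dendritic cells, had 369 and 422 in iNKT1 and 0 reads in iNKT17 cells, at least 136-fold higher. Both chemokine genes were thus read in iNKT1 cells and not in iNKT17 cells. Csf1, the growth factor of macrophages, had 107 and 81.1 against 6.64 and 7.77 (3.52, adjusted p = 0.00203).

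The cytokine genes higher in iNKT17 cells were of the TNF family or type 2. Tnfsf11 (RANKL, which acts on medullary thymic epithelium) had 301 and 347 in iNKT17 and 3.74 and 1.29 in iNKT1 cells (−6.62, adjusted p = 2.03e-06), and Tnfsf14 (LIGHT) 919 and 927 against 271 and 254. Il4 had 48.9 and 68.0 in iNKT17 and 5.98 and 6.44 in iNKT1 cells (−3.03, adjusted p = 0.00245), and 116 and 136 in iNKT2p cells. Tnf had 216 and 247 against 49.4 and 86.2 (−1.81, adjusted p = 0.0345, but 0.25, 0.0599, 0.117 and 0.179 without N0808, N0811, N0810 and N0813). In all, 4 of 12 cytokine genes tested were higher in iNKT1 and 4 in iNKT17 cells.

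Genes of target cell killing were mostly higher in iNKT1 cells where they were called: 9 of 19 tested were higher there, 1 was higher in iNKT17 cells, and the median difference was 1.86. These were 47.4 and 5.26% of the list, against 7.62 and 8.3% of all genes tested. Gzmb (granzyme B) had 1016 and 1008 in iNKT1 against 3.32 and 0 in iNKT17 cells (8.93, adjusted p = 1.13e-05), and Gzma 297 and 265 against 2.49 and 0.971 (6.75). Prf1 (perforin) had 957 and 785 against 7.47 and 6.80 (6.74), and Nkg7, a granule membrane protein, 2194 and 2155 against 3.32 and 0 (10.03). These 4 genes did not overlap between the subsets, which was also true of every other called gene and of 59.5% of all genes tested. Apart from Prf1, their iNKT17 values were at most 3.32 and lay near the limit of a count of 0. The death ligand gene Fasl had 844 and 878 against 6.64 and 35.0, and Tnfsf10, the gene of TRAIL, 1363 and 1361 against 263 and 278, so the second was present in both subsets. Ctsw, a cathepsin of killer cells, and Serpinb9, which protects the killer cell from granzyme B, differed by 3.45 and 1.99. The secretory machinery was not called for Unc13d (0.21), Stx11 (−0.30), Stxbp2 (−0.25) and Lamp1 (−0.12), and Rab27a, which docks granules, had 844 and 963 in iNKT1 and 1489.8 and 1306 in iNKT17 cells (−0.63, adjusted p = 0.045), a call held under 8 of 18 alternatives (adjusted p = 0.261, 0.111, 0.241 and 0.104 without N0808, N0811, N0810 and N0813).

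Receptors of the natural killer type had the highest share of calls towards iNKT1 cells of all lists with at least 7 members tested, with 21 of 28 members tested higher in iNKT1 and 2 in iNKT17 cells (median 6.63, or 5.72 with genes at 0 set to their limit). The 2 calls towards iNKT17 cells were 7.14% of the list, near the 8.3% of all genes tested. Without N0808, N0810 or N0813, 1 was higher in iNKT17 cells. Klra3 had 1785 and 2117 in iNKT1 cells and 0 reads in iNKT17 cells, at least 670.0-fold higher (difference 10.93 ± 0.46; limma, adjusted p = 5.51e-08). It belongs to the Ly49 family of receptors for MHC class I. Its relatives Klra1, Klra5 and Klra7 also had 0 reads in iNKT17 cells, against 602 to 902 normalized counts in the iNKT1 libraries. Klrc1, the gene of NKG2A, had 759.9 and 1174 against 0 reads, and its partner Klrd1 (CD94) 549.7 and 595 against 0 and 18.4. Members of this cluster are close copies of each other, reads may be split between them, and mm10 represents C57BL/6, whose Ly49 genes differ from those of BALB/c mice, so their single values are uncertain. Klra4 and Klra8 had 0 reads in all 4 libraries.

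Receptors outside the Ly49 cluster went the same way. Klrk1, the activating receptor NKG2D, had 1499.6 and 1534 against 17.4 and 37.9 (5.83, adjusted p = 0.000494), and its adaptor Hcst (DAP10) 301 and 317 against 129 and 128 (1.26, adjusted p = 0.00851, but 0.0523, 0.0695, 0.0511 and 0.0552 without N0808, N0811, N0810 and N0813). Ncr1 (NKp46) had 209 and 319 against 0 reads, at least 90.6-fold higher, and Slamf7 (CRACC) 1568 and 1672 against 0 reads, at least 556-fold higher. Fcer1g, a signalling adaptor, had 390.4 and 651 against 0.830 and 0. In contrast, Klrb1c, the gene of NK1.1, was not higher in iNKT1 cells, with 149.6 and 169.9 in iNKT1 and 245 and 264 in iNKT17 cells (−0.67, 95% interval −1.29 to −0.05, not called). Its relatives Klrb1a (−0.54), Klrb1b (−0.46) and Klrb1f (−0.07) were not called either. How well mm10, which represents C57BL/6, matches these Klrb1 genes of BALB/c mice was not tested. Cd226 (DNAM-1), an activating receptor, was higher in iNKT17 cells, at 1550.4 and 1612 against 708 and 745 (−1.12, adjusted p = 0.000201). Of the genes of natural killer and innate lymphoid cells, Eomes, Ncr1 and Prf1 passed the filter and were higher in iNKT1 cells. The list's summed level was 1301 and 1245 in iNKT1 and 17.4 and 35.0 in iNKT17 cells, with Klra8, Klra4, Cma1 and Fcgr4 at 0. Its part in these differences was not tested.

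The Ly6c pair and Samd3 were among the largest differences outside these lists. Ly6c2, which encodes Ly6C of memory T cells and monocytes, had 1075 and 1207 in iNKT1 cells and 0 reads in iNKT17 cells. Ly6c1, a close copy with which it may share reads, had 899.8 and 1107 in iNKT1 cells and 0 reads in iNKT17 cells. Samd3 had 901 and 790.3 against 0 reads, at least 290.4-fold higher. Fgl2, a fibrinogen-like protein, had 5995 and 5664 against 2.49 and 10.7 (9.83, adjusted p = 5.77e-05), and was also among the genes with the most reads. Others of these were Inpp4b, a lipid phosphatase (6722 and 6135 against 669 and 657), Arl4c, a small GTPase (6382 and 6225 against 678 and 824), and Gimap4 (5915 and 6538 against 1411 and 1404).

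Homing receptors separated the subsets in both directions, with 10 of 19 higher in iNKT1 and 5 in iNKT17 cells (median 0.81, and 3 of the latter without N0813). Cxcr3, the receptor of interferon-induced chemokines, had 1401 and 1233 in iNKT1 and 1.66 and 12.6 in iNKT17 cells (7.77, adjusted p = 4.65e-06). Ccr8, a receptor of skin-homing T cells, had 150.3 and 209.8 against 0.830 and 0, a ratio of 385 (68.7 to 15246 by counting error). Klf2, the factor that drives exit genes, had 2544 and 2922 against 129 and 118 (4.45, adjusted p = 8.04e-08). S1pr1, a known target of Klf2 and the receptor for exit from the thymus, had 233 and 242 against 9.95 and 4.85. The factor and this target were thus higher in iNKT1 cells, and detected in both iNKT17 libraries.

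On the iNKT17 side, Ccr6, the receptor of CCL20, had 98.7 and 113 against 0 reads in iNKT1 cells, at least 27.4-fold higher. Ccr4 had 1088 and 1031 against 32.2 and 47.6 (−4.72, adjusted p = 6.17e-07) and Ccr2 3161 and 3573 against 676 and 774 (−2.21, adjusted p = 5.78e-05). Ccr4 was higher still in iNKT2p cells, at 3202 and 2683, as was Ccr7, at 461 and 444 against 32.4 and 74.8 in iNKT17 and 8.98 and 0 in iNKT1 cells (−3.99, adjusted p = 0.00872, but 0.0713 and 0.0932 without N0811 and N0813). Cxcr6, which guides iNKT cells to the liver, was measured at 4872 and 4667 in iNKT1 and 5201 and 4996 in iNKT17 cells (−0.10, 95% interval −0.51 to 0.31).

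Integrin chains were called in both directions. Of the β integrins, Itgb1 had 4351 and 3799.8 in iNKT1 and 589.8 and 486 in iNKT17 cells (2.92, adjusted p = 2.02e-07), whereas Itgb3 had 119.7 and 129 and 4569.9 and 3904 (−5.08, adjusted p = 1.19e-07). Of the α chains called, Itga1, Itga2 and Itga4 were higher in iNKT1 cells, and Itga5 and Itga6 in iNKT17 cells. Itga1, which forms a collagen receptor with β1, had 3119 and 2895 against 2.49 and 0, a ratio of 2263 (774 to 10975 by counting error). Itga2, also of a collagen receptor, had 196 and 251 against 0.830 and 0. Itga4 had 702 and 474 against 13.3 and 37.9, with the iNKT1 libraries further apart than for the other chains. Itga5, the fibronectin receptor chain, was higher in iNKT17 cells, at 300.3 and 325 against 19.4 and 19.3 (−3.94, adjusted p = 1.04e-05). Itgav, which pairs with β3, was not called (0.11). Over the list, 5 of 14 were higher in iNKT1 and 5 in iNKT17 cells (median −0.65). Without N0808, N0811, N0810 or N0813 the count towards iNKT17 cells was 3.

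Genes that iNKT17 cells share with γδ T17 cells were called in one direction: 19 of 22 were higher in iNKT17 cells and the others were not called (median −6.54, or −6.26 with genes at 0 set to their limit). The count was 19 with any 1 of the 4 libraries left out. The list was drawn up with these cells in mind and is no independent evidence of its direction. Blk, a Src-family kinase, had 6623 and 7185 in iNKT17 cells against 1.50 and 0 in iNKT1 cells, a ratio of 7274 (2013 to 60069.6 by counting error). Sdc1, the proteoglycan CD138, had 4508 and 5057 against 4.49 and 0 (−10.99, adjusted p = 2.02e-07). Serpinb1a, a protease inhibitor, had 869 and 975 against 3.74 and 1.29, and the potassium channel gene Kcnk1 766 and 714 against 0.748 and 0. None of these genes overlapped between the subsets, as was true of every called gene and of 59.5% of all genes tested. The scavenger receptor gene Cd163l1 had 332 and 276 in iNKT17 cells, a difference of −4.80, and the related 5830411N06Rik 5247 and 4909 against 149 and 125. Aqp3, an aquaporin, had 1595 and 1592 against 100.2 and 111. Ramp1, part of the receptor for the neuropeptide CGRP, had 4946 and 4743 against 439 and 502, so that these genes were present in iNKT1 cells at a lower level. The members not called were Camk2d (0.40), Gpr183 (−0.01) and Cxcr6. Of the γδ T cell genes, Cd163l1 and Sox13 passed the filter and belong to this list too, and the summed level of those in the table was 27.7 and 21.9 in iNKT1 and 3097 and 3349.5 in iNKT17 cells.

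Large differences towards iNKT17 cells were also shown by genes less often named for T cells. Mmp25, a membrane-bound metalloprotease, had 3513 and 3927 in iNKT17 and 0.748 and 0 in iNKT1 cells, a ratio of 7829.6 (1405 to 309289 by counting error). Stab2 (stabilin-2), a scavenger receptor of endothelium, had 1078 and 1089 against 0 reads, at least 281-fold higher, and Dkk3, a relative of secreted Wnt antagonists, 636 and 748 against 0 reads, at least 179-fold higher. Flt4, the receptor VEGFR-3, had 1008 and 954 against 0.748 and 0. Gcnt1, which builds core-2 O-glycans, had 543 and 602 against 0 reads. Of the endothelial and stromal genes, Kdr, Tek, Col3a1, Dcn, Pdgfra and Pdgfrb were at 0 in all 4 libraries, and the list's summed level was 127 and 144 in iNKT1 and 169 and 316 in iNKT17 cells. Sp3, a zinc finger factor, had 1242 and 1215 in iNKT1 and 21567 and 19720.3 in iNKT17 cells (−4.07, adjusted p = 0.0407). It varied widely between libraries elsewhere, with 1151 and 21172 in the 6-week iNKT17 and 1221 and 10538 in the iNKT2p libraries, and its call held under 12 of 18 alternatives (adjusted p = 0.159, 0.179, 0.163 and 0.159 without N0808, N0811, N0810 and N0813).

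Genes of T cell receptor signalling were called in both directions, 8 of 32 higher in iNKT1 and 6 in iNKT17 cells with a median of −0.02. Without N0808 or N0810, 5 were higher in iNKT1 cells. Cd247, the ζ chain of the receptor complex, had 1081 and 1206 in iNKT1 and 4815 and 4812 in iNKT17 cells (−2.07, adjusted p = 6.19e-06), while Cd3d (0.17), Cd3e (−0.34) and Cd3g (−0.40) were not called. Among the members called towards iNKT1 cells, Ubash3a, a phosphatase-related protein also called STS-2, had 469.7 and 588 against 8.30 and 10.7, Ptpn22 1938 and 1993 against 429 and 409.7, and Dgka, which removes diacylglycerol, 2045 and 1978 against 403 and 353. Their differences were 5.66, 2.23 and 2.41 (limma, adjusted p = 9.43e-06, 9.20e-06 and 2.39e-06). Ubash3b (STS-1) went the other way, at 323 and 418 in iNKT1 and 860.2 and 879 in iNKT17 cells (−1.24, adjusted p = 0.000428).

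Of the 16 genes of general T cell identity, 4 were higher in iNKT1 cells (2 without N0808, N0810 or N0811) and 2 in iNKT17 cells. These were 25 and 12.5% of the list, against 7.62 and 8.3% of all genes tested. Of 12 markers of iNKT2 cells, 3 were higher in iNKT1 and 6 in iNKT17 cells (median −0.92). The 3 include Cd4, whose direction was fixed by the sort.

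Among costimulatory genes 8 of 20 were higher in iNKT1 and 4 in iNKT17 cells. Cd2, an adhesion molecule of nearly all T cells, had 3382 and 3823 in iNKT1 but 12.4 and 52.4 in iNKT17 cells (7.07 ± 0.52, adjusted p = 2.54e-06). Thy1, another pan T cell gene, had 4359.7 and 5089.5 against 383 and 615 (3.28). Cd27 had 699 and 789 against 125 and 111, and Icos was higher in iNKT17 cells, at 3024 and 3320.4 against 995 and 1058 (−1.63, adjusted p = 2.90e-05). Inhibitory receptors were likewise divided, 5 of 14 higher in iNKT1 and 3 in iNKT17 cells. Pdcd1 (PD-1) had 41.9 and 30.9 in iNKT1 and 1389 and 1192 in iNKT17 cells (−5.12, adjusted p = 1.19e-07). Btla had 329 and 389 against 68.0 and 48.5 (2.62), and Lair1, a collagen receptor, 117 and 86.2 against 0.830 and 0. Lag3 was not called (0.19). Of the intracellular inhibitors, Socs3 was higher in iNKT17 cells, at 1276 and 1265 against 139.9 and 115 (−3.32), and Socs1 was not called (−0.50).

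Genes of survival and death gave 8 of 19 calls higher in iNKT1 and 3 in iNKT17 cells, with 4, 3, 5 and 4 higher in iNKT1 cells without N0808, N0811, N0810 and N0813. Bcl2, which holds back mitochondrial death, had 1749 and 1812 in iNKT1 and 163 and 175 in iNKT17 cells (3.39 ± 0.21, adjusted p = 6.29e-07). The Bcl2a1 genes, also protective, were higher in iNKT17 cells, such as Bcl2a1d with 370.0 and 276 against 97.2 and 94.0 (−1.73), though they are near-identical copies whose reads may be split. Bcl2l11 (BIM), which promotes death, had 640.2 and 768 in iNKT1 against 244 and 242 in iNKT17 cells. Bbc3 (PUMA), of the same action, had 208 and 249.7 against 37.3 and 44.7. Mcl1 (−0.03) and Bax (0.01) were not called.

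The insulin-like growth factor axis was higher in iNKT17 cells in 5 of 7 genes tested (3 without N0810 or N0811), and the others were not called. Igf1r, the receptor, had 6483 and 6629 in iNKT17 and 73.3 and 61.8 in iNKT1 cells (−6.58 ± 0.81, adjusted p = 0.000124), and its adaptor Irs1 212 and 309.7 against 0 and 1.29, a ratio of 543 (97.0 to 21475 by counting error). Irs2, the related adaptor, was less far apart (−1.14, adjusted p = 0.00496, but 0.07 and 0.0552 without N0811 and N0810).

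Metabolic genes were called in both directions. In glycolysis, 3 of 19 were higher in iNKT1 and 3 in iNKT17 cells (median −0.18, and 1 of the latter without N0808 or N0810). The glucose transporter Slc2a3 had 929 and 828 in iNKT1 against 279.6 and 309 in iNKT17 cells (1.57, adjusted p = 0.000248), and the platelet-type phosphofructokinase Pfkp 797 and 869 against 2116 and 1768 (−1.22, adjusted p = 0.000237). In cholesterol and lipid synthesis, 2 of 25 were higher in iNKT1 and 4 in iNKT17 cells (2 of the latter without N0808 or N0813). These were 8 and 16% of the list, against 7.62 and 8.3% of all genes tested. Elovl5, which lengthens unsaturated fatty acids, was higher in iNKT1 cells (1.11, adjusted p = 0.00326).

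Interferon response genes gave 6 of 25 calls higher in iNKT1 cells (3 without N0813) and 2 in iNKT17 cells (1 without N0808, N0811 or N0810), with a median of 0.30. The 2 calls towards iNKT17 cells were 8% of the list, near the 8.3% of all genes tested. Ifit2 had 464 and 452 against 139 and 182 (1.52, adjusted p = 0.000344) and Irf7 568 and 608 against 259 and 239.8 (1.23), whereas Iigp1, a GTPase induced by interferon gamma, was higher in iNKT17 cells, at 296 and 219 against 26.9 and 43.8 (−2.86, adjusted p = 0.00238). Of 21 immediate early and stress genes, 3 were higher in iNKT1 and 2 in iNKT17 cells. These were 14.3 and 9.52% of the list, against 7.62 and 8.3% of all genes tested. Without N0808 or N0813, 1 was higher in iNKT1 cells, the calls towards iNKT17 cells were lost without N0810 or N0811, and 1 of them without N0813. Myc had 1468 and 1379.9 in iNKT1 and 419 and 572 in iNKT17 cells (1.54, adjusted p = 0.00188), and Fos (−2.84) and Nr4a1 (−1.64) were not called.

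Of genes of dividing cells, in the G2 and mitosis list 8 of 16 were higher in iNKT1 cells and the others were not called (median 1.45), and the count fell to 3, 1 and 4 without N0808, N0811 and N0813, to 1 with N0814, a DNase-treated repeat of N0813 left out of the main comparison, in its place, to 2 with the mean of both and to 2 with a filter at 50. Mki67, the proliferation marker, had 65.8 and 87.5 in iNKT1, 25.7 and 33.0 in iNKT17 and 294 and 228 in iNKT2p cells (1.35, adjusted p = 0.0195, but 0.167, 0.125 and 0.0501 without N0811, N0810 and N0813). Of 25 S phase genes 5 were higher in iNKT1 and 1 in iNKT17 cells (1, 3 and 2 higher in iNKT1 cells without N0808, N0811 and N0813, and the call towards iNKT17 cells lost without any 1 of the 4), for example Mcm6, part of the replicative helicase (733 and 605 against 401 and 356, adjusted p = 0.00496, but 0.0677 and 0.0559 without N0808 and N0813). Replication-dependent histone genes, whose RNA mostly has no poly(A) tail, gave 11 of 42 calls, all higher in iNKT1 cells (median 0.74), and 5, 6 and 7 without N0808, N0811 and N0810. At 6 weeks, 40 of the same 42 were higher in iNKT1 cells (median 2.42). Hist1h3c had 29.9 and 33.5 against 5.81 and 2.91 at 25 weeks. As members of a multigene family with near-identical copies, single histone genes are uncertain. The calls on the S phase list were 20 and 4% of it, against 7.62 and 8.3% of all genes tested. By BrdU labelling in young thymus, the study found that iNKT1 cells divided least, below iNKT17 cells. It reported less division in aged thymic iNKT cells, and concluded that RNA of replication-dependent histones did not mirror how much each subset divides.

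The double-positive and CD8 thymocyte genes moved with these lists: 7 of 12 tested were higher in iNKT1 cells and the others were not called (median 1.88). Rag1, which recombines receptor genes in cortical thymocytes, had 782 and 792 in iNKT1, 64.7 and 176 in iNKT17 and 3371 and 3424 in iNKT2p cells (2.87, adjusted p = 0.000209). Cd8a had 197 and 205 in iNKT1, 22.4 and 46.6 in iNKT17 and 732 and 702 in iNKT2p cells. Summed over the 13 genes, the level was 2559 and 2694 in iNKT1, 1336 and 1725 in iNKT17 and 9622 and 9659 in iNKT2p cells, and no gene of the list was at 0 in all 4 libraries. The part of such cells in the differences of dividing-cell genes, of Themis and Ccr9, which are on the list, or of Cd4 was not tested.

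Ribosomal protein genes differed by a small amount in one direction. All 52 tested had a positive difference, with a median of 0.43 against 0.02 over all genes, and this was also true with TMM (median 0.43) or upper quartile scaling (0.42). Of them 1 was called, Rpl13, at 2718 and 2865 in iNKT1 and 1922 and 1644 in iNKT17 cells (0.65, adjusted p = 0.0239, but 0.0974, 0.159, 0.0538 and 0.201 without N0808, N0811, N0810 and N0813), while 31 were called with the 4 libraries alone in the fit.

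Genes of other cell types were read as a check of the sort. Of B cell genes 0 passed the filter, with Cd79a, Pax5 and Blnk at 0 in all 4 libraries, and summed levels were at most 13.6. Of 18 myeloid and dendritic cell genes 1 passed, Lyz2, which was not called (1.50 and 1.29 in iNKT1 and 35.7 and 35.9 in iNKT17 cells), and Csf1r, Mpo, S100a8, Siglech, Xcr1 and Clec9a were at 0. Their summed level was 16.5 and 21.9 in iNKT1 and 67.2 and 86.4 in iNKT17 cells. Of erythroid and platelet genes 0 passed, and 8 of 10 were at 0. Of thymic epithelial genes 2 of 10 passed, with Krt8, Krt14 and Foxn1 at 0. Their summed level was 807.8 and 816.1 in iNKT1 and 433 and 458 in iNKT17 cells, most of it from Ly75 (799.5 and 813.5 in iNKT1 and 401 and 428 in iNKT17 cells), whose difference of 0.96 was not called (adjusted p = 0.0755). Epcam pointed the other way and had 2.24 and 1.29 in iNKT1 and 30.7 and 27.2 in iNKT17 cells (−3.46, adjusted p = 0.014, but 0.0552, 0.101, 0.0839 and 0.0731 without N0808, N0811, N0810 and N0813). Foxp3 and Lrrc32 of regulatory T cells were at 0, while Il2ra, Ikzf2 and Tnfrsf18 of the same list were expressed in both subsets.

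**Figure D3:**
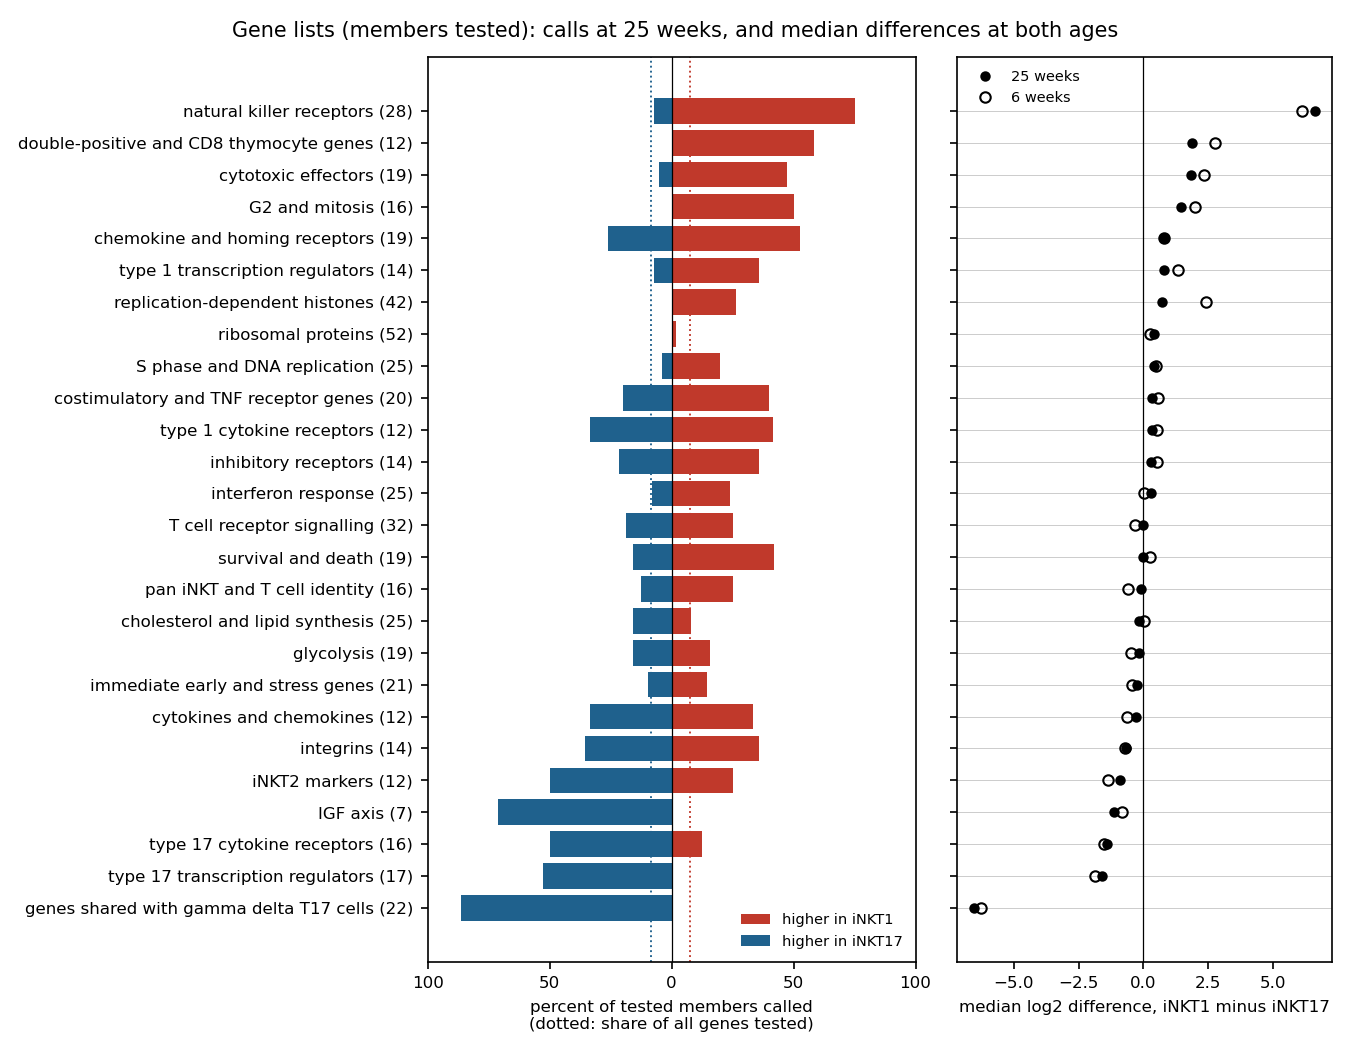
For each gene list with at least 7 members tested (number in brackets), left, the percent of members called at 25 weeks as higher in iNKT1 (red) or iNKT17 cells (blue), with dotted lines at 7.62 and 8.3%, the shares of all genes tested, and right, the median log2 difference at 25 weeks (filled) and 6 weeks (open). Natural killer receptors (21 of 28) and genes shared with γδ T17 cells (19 of 22) lie at the ends.

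For 601 genes the 95% interval of the difference lay within 0.5 on the log2 scale on either side of 0. Among those with the highest levels were Birc6, a large ubiquitin-conjugating enzyme (5219 and 4952 in iNKT1 and 5203 and 5349 in iNKT17 cells), Cfl1 (cofilin, 4673 and 5099 and 4693 and 4851), Prkar1a, a regulatory subunit of protein kinase A (4480.1 and 4289 and 4868 and 4223), and Cnbp (3861 and 3804 and 3846 and 3937). Their differences ran from −0.05 (Birc6) to 0.03 (Cfl1).

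Some genes with opposite differences lay next to each other, a pattern looked for after values had been seen. Of 7854 pairs of neighbouring genes tested that lay within 100 kb of each other, 283 had both members called, 222 in the same and 61 in opposite directions, and in 18 of the latter both differed by at least 2 on the log2 scale. Il12rb2 (9.58) and Il23r (−12.29) were, of these 18, the pair whose smaller difference was largest. Over all genes tested, 7.62% were called higher in iNKT1 and 8.3% higher in iNKT17 cells. Whether opposite pairs were more or fewer than these shares alone would give was not tested.

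Runs of genes in the same direction were also seen. On chromosome 6, 8 Gimap genes, which encode GTPases of lymphocyte survival, lie in a row from Gimap8 (chr6:48647234-48659369) to Gimap3 (chr6:48764464-48770851), and 7 of them were higher in iNKT1 cells, from Gimap9 at 1085 and 1135 against 517 and 554 (1.05, adjusted p = 0.0199, but 0.0925, 0.125, 0.115 and 0.0862 without N0808, N0811, N0810 and N0813) to Gimap7 at 464 and 458 against 6.64 and 0.971 (6.90, adjusted p = 6.02e-06). Gimap1 was not called (0.42). After a gap of 62960 bases follow Tmem176b and Tmem176a, which encode membrane proteins of the γδ T17 list. Tmem176b had 28.4 and 29.6 in iNKT1 against 2500.2 and 2385 in iNKT17 cells (−6.35) and Tmem176a 8.23 and 2.57 against 1105 and 1124 (−7.60). In the SLAM cluster on chromosome 1, Cd244 (6.81), Ly9 (0.99, adjusted p = 0.00721, but 0.0686 and 0.0617 without N0811 and N0813) and Slamf7 (10.66) were higher in iNKT1 cells, Slamf1 was higher in iNKT17 cells (−1.50, adjusted p = 0.0077, but 0.0794 and 0.0574 without N0811 and N0810), and Slamf6 was not called (−0.22).

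**Figure D4:**
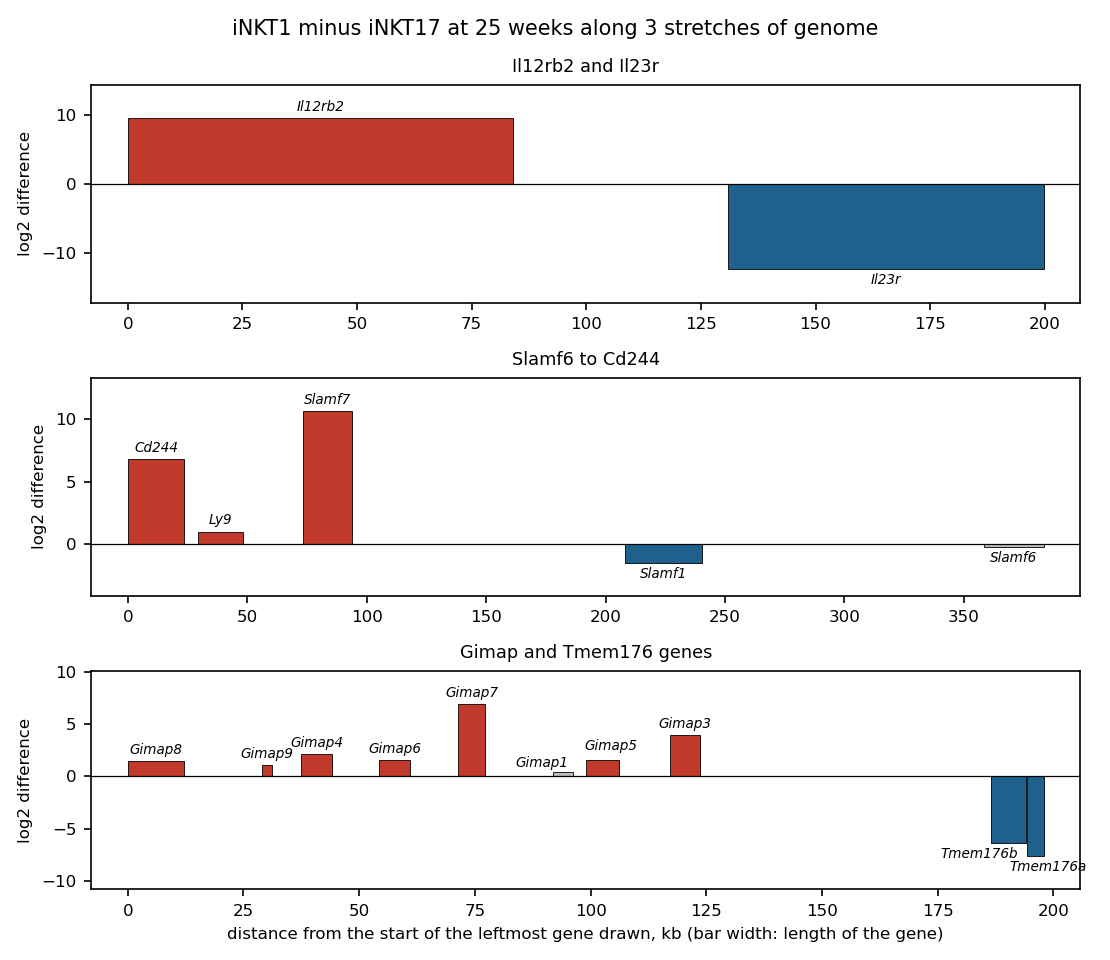
Log2 difference (iNKT1 minus iNKT17, 25 weeks) of genes along 3 stretches of genome, drawn at their distance in kb from the leftmost gene, with red for genes called higher in iNKT1, blue in iNKT17 cells and grey for not called. Il12rb2 (9.58) and Il23r (−12.29) lie on opposite sides, and the 8 Gimap genes, 7 of them called, lie above 0 beside both Tmem176 genes below it.

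The same contrast at 6 weeks rested on other libraries, and was called for 1820 of the 10595 genes (17.2%). Among these, N0805 and N0807 stood apart from N0802 and N0804 by the keratin gene Krt8 of epithelium, at 423.8 (iNKT1) and 54.1 (iNKT17) against 3.23 (iNKT1) and 0.768 (iNKT17), while all 4 libraries of 25 weeks were at 0. Without N0805, N0807 and the like iNKT2 library N0806, 1580 genes were called at 6 weeks, and the count was 3808 without N0802, 1044 without N0804 and 1064 without N0807. Of the 1686 genes called at 25 weeks, 1637 (97.1%) had the same sign at 6 weeks, against 70.3% of all genes tested, and 1166 were called there in the same direction. The latter were 69.2% of the calls at 25 weeks and 64.1% of those at 6 weeks. Without N0805, N0806 and N0807 the counts of 1637 and 1166 were 1628 and 1059. For Il23r the difference was −11.89 at 6 and −12.29 at 25 weeks, and for Tbx21 6.53 and 6.82. The other 520 were not called at 6 weeks, and 654 were called at 6 weeks alone, which by itself does not show a change. Of the 520, 7 had a called change of the difference.

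The change of the difference between the ages was itself called for 20 genes (0.189%), 8 more towards iNKT1 and 12 more towards iNKT17 cells at 25 weeks. This count depends on single libraries. It ranged from 3 without the 6-week iNKT17 library N0804 to 1085 without the 6-week iNKT1 library N0802, and was 9, 4 and 8 without N0808, N0811 and N0813, 43 without N0805, 7 without N0807 and 41 without N0805, N0806 and N0807 together. Klra3 changed furthest towards iNKT1 cells, from 1899.8 and 1956 in iNKT1 and 28.4 and 11.4 in iNKT17 cells at 6 weeks to 1785 and 2117 and 0 reads at 25 weeks (change 4.27 ± 0.65; limma, adjusted p = 0.0303). S1pr1, the exit receptor, had 102 and 113 in iNKT1 and 68.4 and 57.2 in iNKT17 cells at 6 weeks, and 233 and 242 against 9.95 and 4.85 at 25 weeks (change 4.13, adjusted p = 0.0176). Rab27b, a GTPase of secretory vesicles, had 276 and 202 in iNKT1 and 7.68 and 7.63 in iNKT17 cells at 6 weeks, and 313 and 384 against 0 reads at 25 weeks. With 0 reads in iNKT17 cells at 25 weeks, the sizes of the Klra3 and Rab27b changes depend on the pseudocount. Trf, the gene of transferrin, and the sialyltransferase gene St8sia6 changed by 3.39 and 3.22. St8sia6 had 105 and 165 in iNKT1 and 158 and 142 in iNKT17 cells at 6 weeks, where it overlapped, and 423 and 422 against 79.6 and 32.0 at 25 weeks, where it did not.

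Towards iNKT17 cells, Kcnmb4, a potassium channel subunit, changed by −4.50 (adjusted p = 0.0118), with 36.6 and 75.9 in iNKT1 and 114 and 172 in iNKT17 cells at 6 weeks and 1.50 and 1.29 against 145 and 136 at 25 weeks. Myb, a factor of immature lymphoid cells, stood at 1267 and 949 in iNKT1 and 2217 and 1942 in iNKT17 cells at 6 weeks, and at 161 and 106 against 1097 and 817 at 25 weeks (change −1.93, adjusted p = 0.0416). Hist3h2a, a histone gene, had 1159 and 1714 against 218 and 225 at 6 weeks, far apart, and 144 and 169 against 127 and 158 at 25 weeks, where the libraries overlapped (change −2.53, adjusted p = 0.033). Emb (embigin), an adhesion molecule and partner of lactate transporters, had 18.0 and 15.4 in iNKT1 and 2441 and 2281 in iNKT17 cells at 25 weeks and changed by −2.94. Of these genes, the change was called under 14 of 22 alternatives for Klra3, 16 for S1pr1, 18 for Kcnmb4, 22 for Emb, 14 for Myb and 14 for Hist3h2a.

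**Figure D5:**
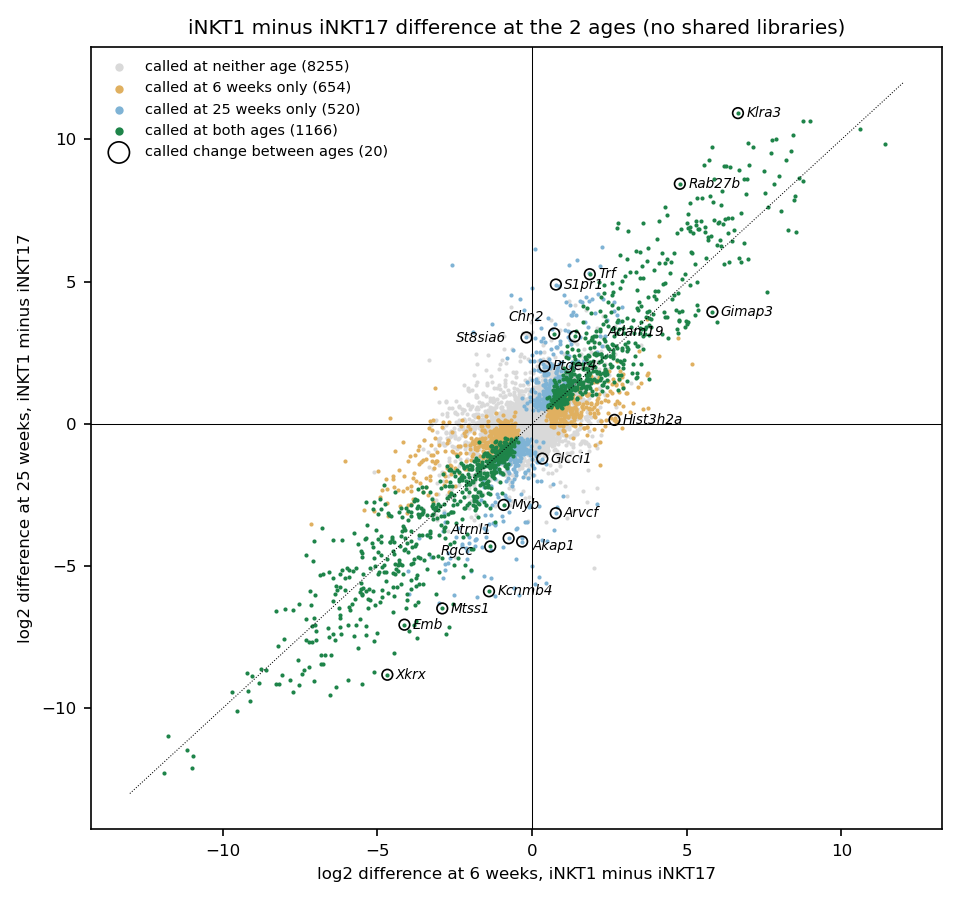
Log2 difference (iNKT1 minus iNKT17) of each gene at 6 weeks (x) and 25 weeks (y), colored by the age at which it was called, with the 20 genes of a called change ringed and named and a dotted line of equal differences. Of the genes called at 25 weeks, 1637 lie in the quadrants of equal sign.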

How the data were processed

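Total RNA of sorted cells was made into strand-specific libraries. Per the study's methods and the labels, the authors trimmed reads with Trim Galore 0.4.1 and cutadapt 1.9.1, aligned them to mm10 with STAR 2.5.0c and counted reads of the annotated strand per gene with featureCounts. The deposited values are these counts divided by a DESeq2 size factor per library (a signal, not whole counts), and 100% of the values gave whole reads to within 0.01 of a read. The authors also deposited adjusted p-values of 9 comparisons between groups, which were not used.

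Genes that reached 10 in 2 or more of the 4 libraries were tested with limma 3.58.1 (R 4.3.3, variance trend) on log2(value + 1). The fit held 12 libraries in 6 groups with 6 residual degrees of freedom. A second contrast took the difference at 25 weeks minus that at 6 weeks. A DNase-treated repeat of N0813 (N0814) was left out and used as an alternative only. No comparison was paired. Intervals are 95% intervals. A fold against 0 reads was taken against 3 reads in each library, and ratios against 1 to 3 reads carry exact counting intervals. The procedure was tested on simulated counts drawn with the same dispersion for all genes and libraries. That test does not cover single libraries that stand apart from the others. edgeR 4.0.16 and DESeq2 1.42.0 on the recovered reads were alternatives, as were other pseudocounts, filters, scalings and sets of libraries.

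Members, gene lists and tests were chosen with earlier results of these data known. Genes were named by a rule. It took the sort and defining genes, the 15 called genes with the largest difference and the 8 called genes with the highest level in each direction, and from each list up to 6 called members per direction and 2 not called. It also took the 10 highest genes with an interval within 0.5, the genes of a called change between ages, and genes the study names for these subsets. Others described as list members or as neighbours were chosen after their values were seen. Promoters came from RefSeq (GRCm38.p6), matched by symbol. Some genes are not reported here.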

Additional observations from a re-analysis of the deposited data

Results flagged for a closer look

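For 20 genes the difference between iNKT1 and iNKT17 cells at 25 weeks departed from that at 6 weeks by limma's test of the change itself. The change went towards iNKT1 cells for Adam19 (1.70), Chn2 (2.46), Klra3 (4.27), Ptger4 (1.62), Rab27b (3.66), S1pr1 (4.13), St8sia6 (3.22) and Trf (3.39), on the log2 scale. It went towards iNKT17 cells for Akap1 (−3.82), Arvcf (−3.91), Atrnl1 (−3.27), Emb (−2.94), Gimap3 (−1.89), Glcci1 (−1.55), Hist3h2a (−2.53), Kcnmb4 (−4.50), Mtss1 (−3.59), Myb (−1.93), Rgcc (−2.96) and Xkrx (−4.15). S1pr1 and Klra3 are described above, and Gimap3, which was higher in iNKT1 cells at 25 weeks, had a larger difference at 6 weeks (5.83 against 3.94). Ptger4, a receptor for prostaglandin E, had 640.1 and 614 in iNKT1 and 442 and 506 in iNKT17 cells at 6 weeks, and 521 and 547 against 145 and 117 at 25 weeks.

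The DNase-treated repeat of N0813, which took no part in the comparison, held 18.5 normalized counts (14 reads) of Il17a, above the 3.97 that a count of 0 allows there. The untreated library of the same RNA, the other iNKT17 library and both iNKT1 libraries of 25 weeks had 0 reads, and the 6-week iNKT17 libraries had 4.61 and 2.29. Il17f had 0 reads in the repeat. The part of the treatment in this value was not tested.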

How the results depend on the processing

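The count of 1686 genes at 25 weeks stayed within 1.5 times of itself with pseudocounts of 0.5 (1647) and 5 (1773), no filter (1734), a filter at 50 (1476) or over 12 libraries (1718), TMM (1685) or upper quartile scaling (1671), no variance trend (1567), the DNase-treated repeat in place of N0813 (1665) or averaged with it (1705), edgeR (1713) and DESeq2 (1985). It was 2543 with the 4 libraries alone and 2610 without N0805, N0806 and N0807, a choice made after seeing the data, and 1069 to 1200 with 1 library of 25 weeks left out. The count of 20 changes between ages was 3 with the 8 libraries compared alone, 137 with DESeq2, 41 without N0805, N0806 and N0807, and 3 to 1085 with 1 library left out. Where 1 library stood for a group, it was assumed to vary like the others. The causes were not tested. Of 5483 values of 306 named genes under these alternatives, 5140 kept their direction and side of the threshold, 272 lost the call (86 of them outside the leave-one-out fits), 51 gained it and 20, all of genes not called, changed sign. Of 234 called named genes, 169 were called the same way under every alternative. No paired analysis was possible because the replicate numbers follow accession order and the labels do not say which sort each library came from. Each subset has 2 libraries, and levels near 2.24 to 3.86 normalized counts cannot be told from 0.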

Other observations

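A few other neighbouring genes stood on opposite sides, chosen after their values were seen. On chromosome 6, Clec2i, which encodes a ligand of a natural killer receptor in mice, differed by 5.00 and Clec2g, 37831 bases away, by −5.99. On chromosome 11, Adamts2, a procollagen protease, differed by −7.18 and Zfp354c, a zinc finger gene 7056 bases away, by 4.46. No explanation of these pairs was tested.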
